A study of Mus musculus with 4 samples.

Results

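The genes described here encode proteins that copy DNA and supply the nucleotides for it. They comprise 41 named genes, from the origin recognition complex to histone supply, out of 18193 genes that single-symbol probe sets name on the array. A probe set is a group of short probes for 1 transcript, and each gene was represented by its probe set with the highest mean log2(signal + 16) over all 4 arrays. Of the 41 genes, 40 had such a probe set, and Chaf1a is not reported here. A gene was tested if its signal exceeded the 40th percentile of the array on 2 or more of the 4 arrays, and 39 genes met this condition. The other, Tyms, the thymidylate synthase, had signals of 25.2 and 36.6 in the G-MDSC arrays, against 32.9 and 113 in the neutrophil arrays, all below that percentile of the array, and was not tested.

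RNA was measured in 2 samples of G-MDSC, the granulocytic kind of myeloid-derived suppressor cell, and 2 samples of neutrophils, all from female C57BL/6 mice, on 1 Affymetrix expression array each. G-MDSC are immature granulocytes that accumulate when a tumour grows and hold back T cell responses. They were CD11b+Ly6G+Ly6Clow cells selected on Ly6G microbeads from spleens 3.5 weeks after EL4 lymphoma cells were injected under the skin. Neutrophils came from peritoneal lavage. Mice received 12% casein (1.5 ml) on 2 occasions separated by 16 h, and 3 h later the lavage cells were stripped of F4/80-positive cells before Ly6G selection. Red cells were lysed in both. Cell kind, tissue, tumour, casein and sorting steps changed together, so their parts in a difference cannot be told apart. Whether samples of one group were taken from different mice is not given in the labels. The p-values therefore reflect just how far these arrays spread, and that spread could be technical. With 2 arrays a group, an exact permutation test cannot give a p below 0.33, so the model fitted across all genes is the only test used.

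Before a cell copies its DNA, the origin recognition complex and its loaders place the ring-shaped MCM helicase on origins. Kinases and the GINS and CDC45 proteins then switch the helicase on, and polymerases, held by the sliding clamp PCNA, copy the strands. Most of these genes are transcribed at the entry into S phase under E2F transcription factors. Granulocytes divide up to the myelocyte stage and then leave the cell cycle.

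Promoters are shown because E2F is known to regulate many of these genes, and the ones printed belong to genes that were called and, for contrast, genes that were not. RefSeq promoters of build GRCm38.p6, which run from 250 bases before to 50 bases after the transcription start, were found for 35 of the 41 genes. The searched letters were TTTCCCGC, TTTCGCGC, TTTGCCGC and TTTGGCGC for E2F, and CCAAT for the CCAAT box that NF-Y binds, each on both strands. The promoters below are written 5′ to 3′ on the strand of the gene, with every match in capitals. Tk1, Pola2 and Uhrf1 were taken by a rule on the size of the difference between cell kinds, and Rrm2 and Mcm6 were chosen after their values were seen.
Tk1 (chr11:117825965-117826264, minus strand): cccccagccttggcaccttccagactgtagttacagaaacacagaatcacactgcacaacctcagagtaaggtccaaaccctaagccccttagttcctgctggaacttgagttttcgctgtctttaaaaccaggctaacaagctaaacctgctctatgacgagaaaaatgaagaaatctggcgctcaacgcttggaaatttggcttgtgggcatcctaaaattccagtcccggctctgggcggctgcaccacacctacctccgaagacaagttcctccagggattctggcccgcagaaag
Rrm2 (chr12:24708004-24708303, plus strand): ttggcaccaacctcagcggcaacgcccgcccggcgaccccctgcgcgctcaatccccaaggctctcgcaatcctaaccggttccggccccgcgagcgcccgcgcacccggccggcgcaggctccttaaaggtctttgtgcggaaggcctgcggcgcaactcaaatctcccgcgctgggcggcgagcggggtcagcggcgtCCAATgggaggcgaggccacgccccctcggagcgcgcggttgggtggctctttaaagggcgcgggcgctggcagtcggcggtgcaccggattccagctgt
Pola2 (chr19:5964157-5964456, minus strand): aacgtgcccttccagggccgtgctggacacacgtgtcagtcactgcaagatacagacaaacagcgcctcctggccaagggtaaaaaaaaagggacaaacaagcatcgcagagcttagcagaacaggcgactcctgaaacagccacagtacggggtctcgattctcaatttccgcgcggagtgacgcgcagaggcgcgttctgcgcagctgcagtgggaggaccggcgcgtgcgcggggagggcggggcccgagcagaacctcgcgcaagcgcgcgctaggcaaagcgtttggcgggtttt
Uhrf1 (chr17:56304063-56304362, plus strand): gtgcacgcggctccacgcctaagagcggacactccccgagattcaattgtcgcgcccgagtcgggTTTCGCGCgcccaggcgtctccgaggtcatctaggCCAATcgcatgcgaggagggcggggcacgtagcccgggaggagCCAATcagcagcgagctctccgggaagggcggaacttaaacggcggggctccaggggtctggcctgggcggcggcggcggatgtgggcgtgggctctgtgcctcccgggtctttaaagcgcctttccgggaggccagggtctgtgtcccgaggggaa
Mcm6 (chr1:128359656-128359955, minus strand): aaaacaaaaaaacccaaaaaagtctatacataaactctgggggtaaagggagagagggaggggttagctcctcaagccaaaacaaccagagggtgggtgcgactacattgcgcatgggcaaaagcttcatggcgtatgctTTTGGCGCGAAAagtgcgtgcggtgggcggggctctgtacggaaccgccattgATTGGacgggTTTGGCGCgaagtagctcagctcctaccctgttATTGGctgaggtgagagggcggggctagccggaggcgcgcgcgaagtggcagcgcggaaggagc
Called genes shown are Tk1, Rrm2 and Pola2, and Uhrf1 and Mcm6 were not called. In the Mcm6 promoter the first stretch in capitals is a pair of overlapping E2F matches on opposite strands, a further E2F match follows, and the other capitals are CCAAT boxes read on the reverse strand. Of the 2 Uhrf1 promoters in the table, the one with an E2F match was chosen for display, and it also holds 2 CCAAT boxes. The other has 0 E2F matches and 3 CCAAT boxes, and the Rrm2 promoter holds 1 CCAAT box. Neither kind of letters was found in the windows of Tk1 and Pola2, which says only that these letters are not in these bases. E2F letters stood in 13 of the 35 genes' promoters (37.1%), against 2.605% of the 27025 genes whose promoters were used. They were the genes Cdc6, Cdt1, Lig1, Mcm3, Mcm5, Mcm6, Mcm7, Orc1, Pola1, Pold1, Pole2, Rfc3 and Uhrf1. CCAAT boxes stood in 60% of the 35, against 41.1%. The median GC content of the 35 promoters was 61.3%, against 52.7% for all genes. Of the 19 E2F matches, 5 overlapped another match. A match is a description of letters only.

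Few members were called. By limma, 3 of 39 were higher in G-MDSC, namely Tk1, Rrm2 and Mcm4, and 1, Pola2, was lower, with an adjusted p under 0.05. Of these, Tk1 met the condition for testing only through its G-MDSC signals, so a difference was built into its being tested. Over all 13139 genes tested, 8.3% were called higher and 8.05% lower (16.4% in all). The members' 7.69% higher was near that background, and their 2.56% lower, a single gene, was under it. The remaining 35 members were not called, and 33 of the 39 differed by less than 1 on the log2 scale. At an unadjusted p under 0.05 there were 9 members, where all genes gave 29.6%. The median log2 difference, G-MDSC minus neutrophils, was 0.07 over the members and -0.18 over all genes tested. The arrays of the groups did not overlap for 12 members that were higher and 4 that were lower in G-MDSC, which is 30.8% and 10.3% of the members, where all genes gave 27.3% and 32.2%. The fits that leave out 1 array gave between 0 and 9 members higher and between 0 and 6 lower, and in each the arm with 1 array is assumed to vary like the arm with 2. The members' median was -0.31 with G-MDSC replicate 1 left out and 0.70 with G-MDSC replicate 2 left out. With G-MDSC replicate 1 left out, limma called 0 members higher and 1 lower, where it called 3.27% and 4.37% of all genes, and 2 members were higher at an unadjusted p under 0.05. With G-MDSC replicate 2 left out it called 2 higher and 0 lower, where it called 3.89% and 4.27% of all genes, and 1 member was lower at an unadjusted p under 0.05. Leaving out neutrophils replicate 1 gave 9 higher and 6 lower (18.4% and 26.4% of all genes), and leaving out neutrophils replicate 2 gave 6 and 2 (13% and 11.1%).

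**Figure D1:**
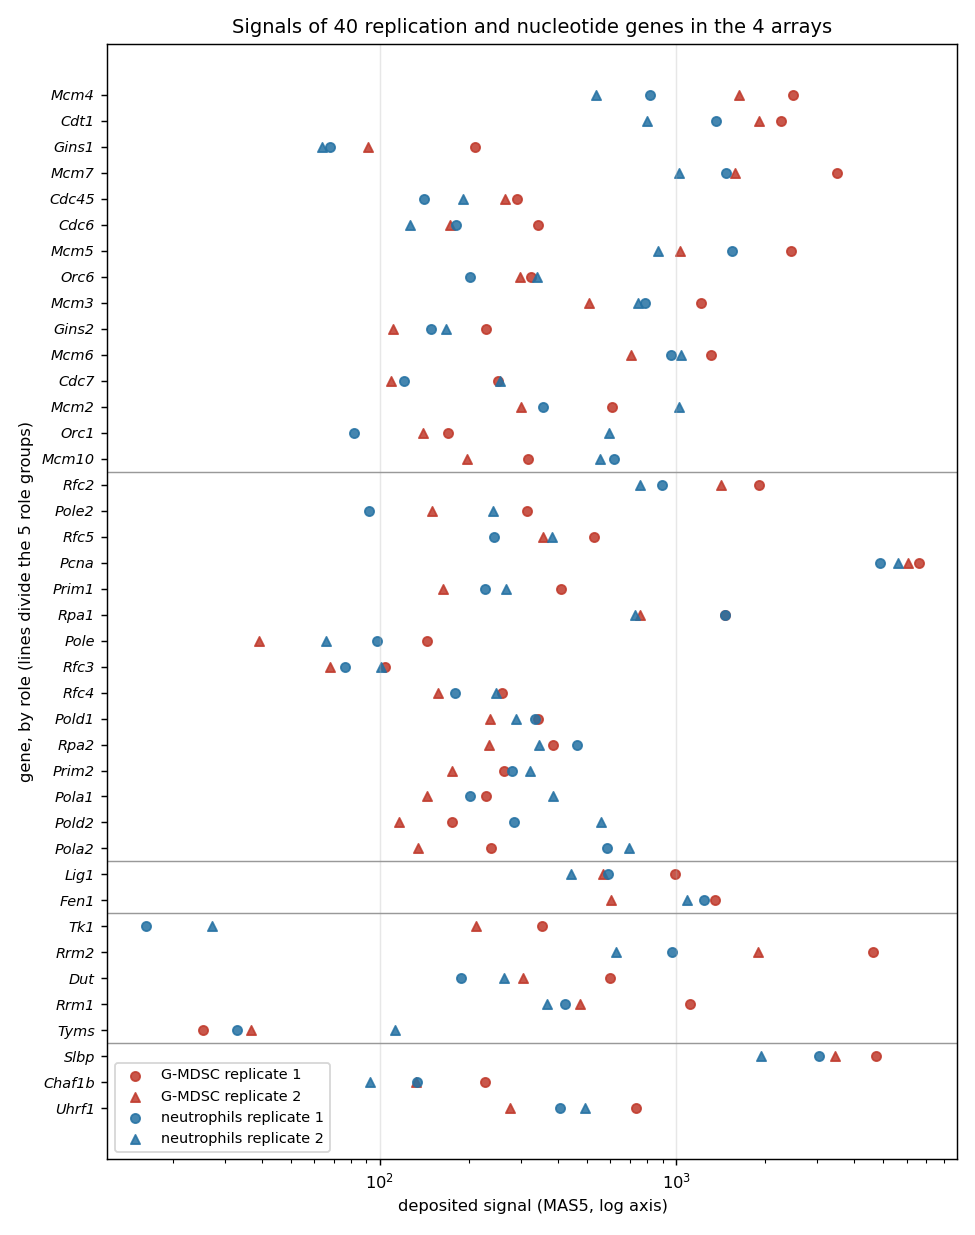
Deposited signal (horizontal log axis) of the 40 genes with a probe set, 1 row a gene, in G-MDSC (red) and neutrophils (blue), with circles for replicate 1 and triangles for replicate 2. Red circles lie right of red triangles for every gene but Tyms. The red and blue marks are separate for 12 members higher and 4 lower in G-MDSC, among them Tk1, Rrm2, Mcm4 and Pola2.

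The arrays were not alike at their low end. The 40th percentile of signal was 45.7 and 52.6 in the G-MDSC arrays and 51.4 and 133 in the neutrophil arrays, and 7 members (Cdc6, Gins1, Pole, Rfc3, Tk1, Tyms and Chaf1b) lay at or below it in neutrophils replicate 2. The median signal of the 39 tested members was 383 and 264 in the G-MDSC arrays and 334 and 383 in the neutrophil arrays. The signals summed over the 40 genes were 44065 and 27172 in the G-MDSC arrays, against 26203 and 24759 in the neutrophil arrays. By the sum, to which a few bright genes add most, G-MDSC replicate 1 stood above the other 3 arrays. By the median it was level with neutrophils replicate 2, and G-MDSC replicate 2 was the lowest of the 4. For 10 of the 39 tested members both neutrophil signals lay between the 2 G-MDSC signals. In bulk RNA, fewer cells of a type and less RNA per cell cannot be told apart.

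The 2 G-MDSC arrays differed for every tested member. All 39 tested members were higher in G-MDSC replicate 1 than in replicate 2, by 0.12 to 1.54 on the log2 scale, with a median of 0.75. Among all genes tested 48.4% were higher in replicate 1, with a median difference of -0.02. The difference was at least 2-fold for 11 members, against 3.89% of all genes. It was largest for Pole, the catalytic subunit of polymerase epsilon (1.54), Uhrf1, which binds newly copied, hemimethylated DNA behind the fork (1.36), and Rrm2 (1.28), and smallest for Orc6 (0.12), Pcna (0.12) and Cdc45 (0.13). In neutrophils 19 members were higher in replicate 1 and 20 in replicate 2, where 62.8% of all genes were higher in replicate 2. Neutrophil replicates differed by -2.64 to 0.99, and at least 2-fold for 3 members, Orc1, Mcm2 and Pole2, each higher in replicate 2. One array against 1 array allows no test. The count for G-MDSC was 39 of 39 with other pseudocounts, with median scaling and with a floor for low signals, and 37 of 39 with quantile normalization and with the median of each gene's probe sets. These counts were added after the data were seen.

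**Figure D2:**
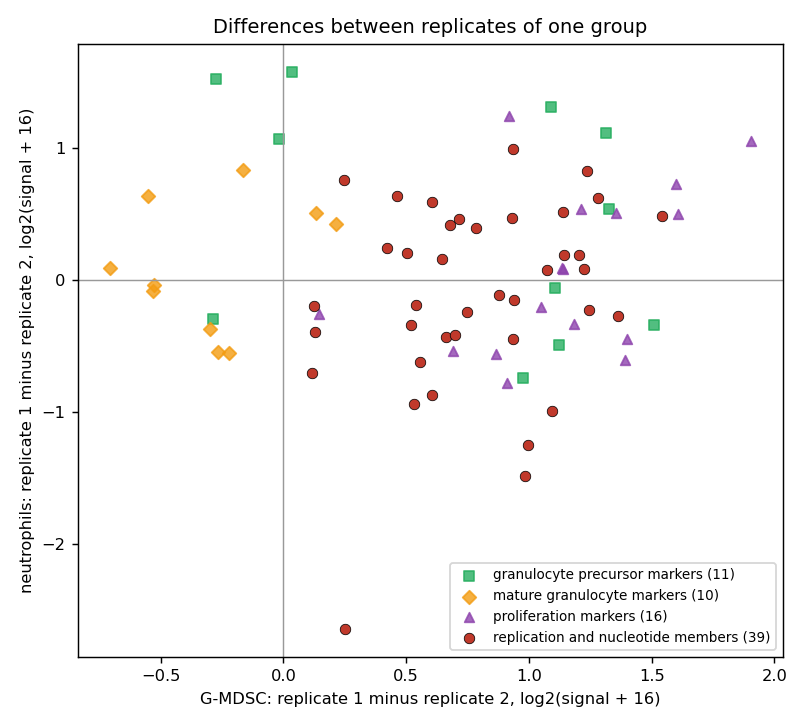
Difference between replicate 1 and replicate 2 in G-MDSC (horizontal) and in neutrophils (vertical), both on log2(signal + 16), for 39 tested members (red circles), 16 proliferation markers (purple triangles), 11 granulocyte precursor markers (green squares) and 10 mature granulocyte markers (orange diamonds). The members all lie right of 0 on the horizontal axis, between 0.12 and 1.54, and spread to both sides of 0 on the vertical axis.

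Other lists also differed between the 2 G-MDSC arrays, by varying amounts. All 16 tested proliferation markers were higher in G-MDSC replicate 1, with a median difference of 1.16, as were 8 of 11 granulocyte precursor markers, with a median of 1.09. Of 10 mature granulocyte markers 2 were higher there, with a median of -0.28. Mki67, a protein of dividing nuclei, had signals of 4169 and 1102 in the G-MDSC arrays, against 1245 and 592 in the neutrophil arrays, and Mpo, the myeloperoxidase made by promyelocytes, had 8580.2 and 3979.7 in the G-MDSC arrays, against 149.6 and 156 in the neutrophil arrays. Of the 54 further replication and nucleotide genes 35 were higher in replicate 1, with a median of 0.20. T and NK cell markers were higher there for 7 of 10, with a median of 0.82, and erythroid markers for 5 of 10, with a median of 0.04. The part of these cells in the members' difference was not tested.

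Among the genes for loading and starting the helicase, 1 of 15 was called, where limma called 16.4% of all genes. Their median log2 difference was 0.23. Mcm4, a subunit of the helicase ring, had signals of 2489 and 1632 in the G-MDSC arrays, against 816 and 538 in the neutrophil arrays. Both G-MDSC arrays were higher than both neutrophil arrays, and the log2 difference was 1.58 ± 0.35 (limma SE, n = 2 per group; adjusted p = 0.011). Its second kept probe set gave 1.19. The call was lost without G-MDSC replicate 1 (adjusted p = 0.168) and without an intensity trend (0.0928), with adjusted p from 1.53e-07 to 0.168 over 16 alternatives.

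The other subunits of the helicase ring were not called. Mcm7 had signals of 3495 and 1579.9 in the G-MDSC arrays, against 1474 and 1026 in the neutrophil arrays, a log2 difference of 0.93 ± 0.40 (limma SE, n = 2 per group; adjusted p = 0.145). Mcm7 passed in 2 of 16 alternatives, with adjusted p from 0.00113 to 0.881. Its groups did not overlap, but the higher neutrophil array was close to the lower G-MDSC array. Mcm2 had 609 and 300.2 in the G-MDSC arrays, against 354 and 1021 in the neutrophil arrays, a difference of -0.48 ± 0.50. Its highest and its second lowest value were both from neutrophils. Mcm3 had 1212 and 509.7 in the G-MDSC arrays, against 788 and 744 in the neutrophil arrays, a difference of 0.04 ± 0.41. Mcm6 had 1311 and 707 in the G-MDSC arrays, against 959.9 and 1037 in the neutrophil arrays, a difference of -0.05 ± 0.36. For both genes the neutrophil arrays lay between the G-MDSC arrays. Mcm5 had 2451 and 1031 in the G-MDSC arrays, against 1547 and 867 in the neutrophil arrays, and its groups overlapped, with a difference of 0.45 ± 0.44. Summed over the 6 subunits, the signal was 11567 and 5759 in the G-MDSC arrays, against 5939 and 5232 in the neutrophil arrays. Differences between subunits were not tested.

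The licensing factors and the kinase were not called, with differences of both signs. Cdt1, which loads the helicase and is destroyed once S phase begins, had signals of 2269 and 1908 in the G-MDSC arrays, against 1364 and 799 in the neutrophil arrays, with separate groups and a log2 difference of 0.98 ± 0.34 (limma adjusted p = 0.0762). Cdt1 passed the threshold in 4 of 16 alternatives, with adjusted p from 0.00015 to 0.458. Cdc6, its loading partner, had 342 and 172 in the G-MDSC arrays, against 181 and 126 in the neutrophil arrays. The groups of Cdc6 overlapped, and its difference was 0.63 ± 0.48. Orc1, the largest origin recognition subunit, had 169 and 139.7 in the G-MDSC arrays, against 81.9 and 595 in the neutrophil arrays. Its neutrophil arrays lay on both sides of the G-MDSC arrays, so its difference of -0.53 ± 0.71 rested on 1 array, and it was 0.80 without neutrophils replicate 2. Orc6, another subunit of that complex, had 323 and 296 in the G-MDSC arrays, against 202 and 339 in the neutrophil arrays, and its difference was 0.23 ± 0.40. Its neutrophil arrays, too, lay on both sides. Cdc7, the kinase that phosphorylates the helicase, had 251 and 109 in the G-MDSC arrays, against 120.1 and 254 in the neutrophil arrays, a difference of -0.07 ± 0.55.

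The factors that turn the loaded ring into a running helicase gave differences of both signs. Mcm10, which helps to activate the helicase, had signals of 317 and 197 in the G-MDSC arrays, against 617 and 552 in the neutrophil arrays, and both G-MDSC arrays were lower. Its log2 difference was -1.17 ± 0.37 (limma adjusted p = 0.0541), just outside the threshold, and it passed in 7 of 16 alternatives, with adjusted p from 0.00492 to 0.548. Cdc45, a part of the active helicase, had 289.8 and 264 in the G-MDSC arrays, against 141 and 191 in the neutrophil arrays. All arrays of Cdc45 were separate by group, and its difference was 0.70 ± 0.42. Gins1, a GINS subunit, was dim, with 209 and 91.04 in the G-MDSC arrays, against 67.96 and 63.5 in the neutrophil arrays, and its difference was 0.93 ± 0.65. Gins2, another GINS subunit, had 228 and 111 in the G-MDSC arrays, against 149 and 167 in the neutrophil arrays, a difference of 0.02 ± 0.51.

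Among the 15 genes for priming, synthesis and the clamp, 1 was called, where limma called 16.4% of all genes. Their median log2 difference was -0.05. Pola2, the regulatory subunit of the polymerase that starts each strand, had signals of 236 and 134 in the G-MDSC arrays, against 585 and 694 in the neutrophil arrays. Both G-MDSC arrays were far dimmer than either neutrophil array, and the difference was -1.75 ± 0.39 (limma SE, n = 2 per group; adjusted p = 0.0116). The call was lost with median scaling (adjusted p = 0.125), with the median of its probe sets (0.107), without an intensity trend (0.0753) and without G-MDSC replicate 2 (0.188), with adjusted p from 2.97e-05 to 0.188 over 16 alternatives. Its 3 probe sets gave -1.75, -0.57 and, in one too dim to be kept, 1.44.

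**Figure D3:**
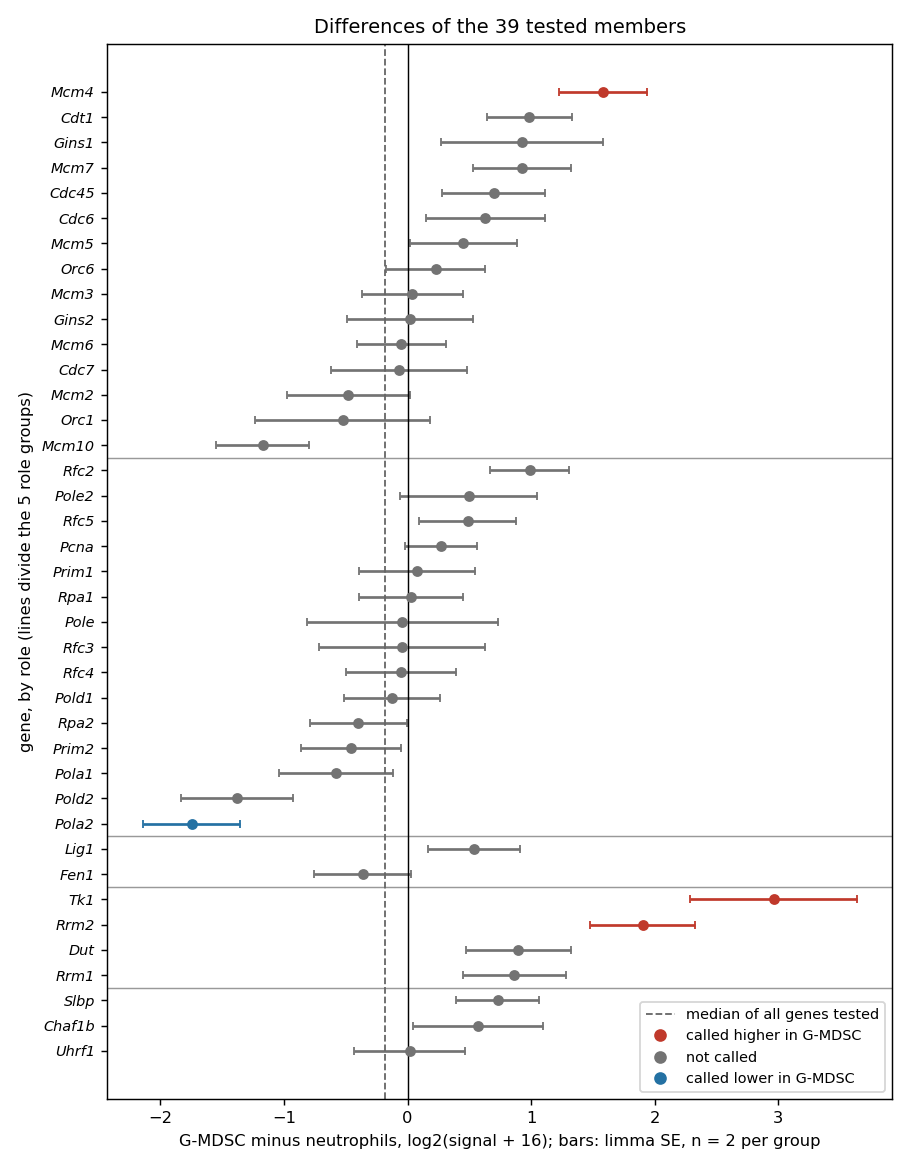
Log2 difference of the 39 tested members, G-MDSC minus neutrophils on log2(signal + 16), with limma standard errors (n = 2 per group), in the order of the 5 role groups. Red marks Tk1, Rrm2 and Mcm4, blue marks Pola2, grey marks the 35 members not called, and the dashed line is the median of all genes at -0.18.

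The partners of Pola2 were not called. Pola1, the catalytic subunit, had signals of 228 and 144 in the G-MDSC arrays, against 202 and 383 in the neutrophil arrays, a log2 difference of -0.58 ± 0.46. The catalytic primase subunit Prim1 had 408 and 163 in the G-MDSC arrays, against 226 and 267 in the neutrophil arrays, a difference of 0.07 ± 0.47. The neutrophil arrays of Prim1 lay between its G-MDSC arrays. Its partner Prim2 had 262 and 175 in the G-MDSC arrays, against 280.1 and 322 in the neutrophil arrays, with both G-MDSC arrays lower and a difference of -0.46 ± 0.40. The second kept probe set of Prim2, about as bright, gave 0.29. Pold2, a subunit of the lagging-strand polymerase delta, had 175 and 116 in the G-MDSC arrays, against 282 and 556 in the neutrophil arrays, and both G-MDSC arrays were lower. Its difference was -1.38 ± 0.45 (limma adjusted p = 0.0609), and it passed in 3 of 16 alternatives, with adjusted p from 0.000115 to 0.438. The difference of the catalytic subunit Pold1 was -0.13 ± 0.39. In polymerase epsilon, Pole had 144 and 38.9 in the G-MDSC arrays, against 98.01 and 65.6 in the neutrophil arrays, a difference of -0.04 ± 0.78. Pole was among the dimmest members, and its G-MDSC arrays lay on both sides of its neutrophil arrays. The subunit Pole2 had 314 and 149.5 in the G-MDSC arrays, against 91.6 and 240.0 in the neutrophil arrays, a difference of 0.49 ± 0.55.

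Pcna, the sliding clamp, was bright in all arrays. It had signals of 6602 and 6057 in the G-MDSC arrays, against 4894 and 5619 in the neutrophil arrays, a log2 difference of 0.27 ± 0.29. The groups were separate, by a narrow margin. Of the clamp loader subunits, Rfc2 had 1909 and 1420.4 in the G-MDSC arrays, against 895 and 754 in the neutrophil arrays, with separate groups and a difference of 0.99 ± 0.32 (limma adjusted p = 0.0578). Rfc2 passed in 4 of 16 alternatives, with adjusted p from 0.00264 to 0.564. Its partner Rfc5 had 529 and 354 in the G-MDSC arrays, against 242 and 381 in the neutrophil arrays, with overlapping groups and a difference of 0.49 ± 0.39. The differences of Rfc3 and Rfc4, the other subunits among the members, were -0.05 ± 0.67 and -0.05 ± 0.45. Rpa1, which coats single-stranded DNA, had 1464 and 757 in the G-MDSC arrays, against 1464 and 728 in the neutrophil arrays, and its groups overlapped almost fully. Its partner Rpa2 had 383 and 233 in the G-MDSC arrays, against 464 and 344 in the neutrophil arrays, a difference of -0.40 ± 0.39.

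The genes for joining fragments were not called. Fen1, which trims the flaps between fragments, had signals of 1349 and 602 in the G-MDSC arrays, against 1246 and 1089 in the neutrophil arrays. Its neutrophil arrays lay between the G-MDSC arrays, and its log2 difference was -0.36 ± 0.39. Lig1, the ligase that seals them, had 989 and 567 in the G-MDSC arrays, against 587 and 443 in the neutrophil arrays, with overlapping groups and a difference of 0.54 ± 0.37.

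Of the 4 nucleotide synthesis genes tested, limma called 2 higher, Tk1 and Rrm2, where it called 8.3% of all genes higher. The 4 genes are too few to set against that share. The 4 tested genes were separate by group and higher in G-MDSC, as 27.3% of all genes were, with a median log2 difference of 1.399. They include Tk1, and the fifth gene of the group, Tyms, was not tested and had overlapping groups. Tk1, the thymidine kinase of S phase, had signals of 353 and 212 in the G-MDSC arrays, against 16.2 and 26.99 in the neutrophil arrays. Neither neutrophil value reached the 40th percentile of its array, so Tk1 met the condition for testing only through G-MDSC, and a difference was built into its being tested. Against the percentile of each neutrophil array, the G-MDSC mean was at least 2.90-fold higher, or 1.95-fold against the highest of the 4 percentiles. These bounds compare group means on log2(signal + 16), not single arrays. The limma adjusted p of 0.0122 belongs to the fitted log2 difference of 2.96, not to a bound. With the floor for low signals that difference was 1.73 (limma adjusted p = 0.0428), and Tk1 stayed called. The call was lost without G-MDSC replicate 1 (adjusted p = 0.579) and without replicate 2 (0.264), fits in which the G-MDSC arm is 1 array and the spread comes from the neutrophil arrays alone. The fitted log2 difference, which is no bound, was 2.61 and 3.31 in them, against 2.96 with all arrays, with adjusted p from 4.59e-09 to 0.579 over 16 alternatives.

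Rrm2, the small subunit of ribonucleotide reductase, which makes deoxynucleotides, had signals of 4617 and 1890.1 in the G-MDSC arrays, against 969 and 626 in the neutrophil arrays. Both G-MDSC arrays were above both neutrophil arrays, and the log2 difference was 1.90 ± 0.42 (limma SE, n = 2 per group; adjusted p = 0.011). Its 3 kept probe sets gave 1.90, 2.12 and 1.71. The call was lost without G-MDSC replicate 1 (adjusted p = 0.163) and without an intensity trend (0.108), with adjusted p from 3.55e-10 to 0.163 over 16 alternatives. Rrm1, the large subunit of the same enzyme, had 1115 and 475 in the G-MDSC arrays, against 420.4 and 367 in the neutrophil arrays, a difference of 0.87 ± 0.42 (limma adjusted p = 0.193). Its second kept probe set gave -0.04. Dut, which removes dUTP, had 598 and 305 in the G-MDSC arrays, against 188 and 263 in the neutrophil arrays, a difference of 0.90 ± 0.42 (adjusted p = 0.186).

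The genes for chromatin copying and histone supply were not called. Slbp, which binds the stem-loop of histone mRNAs, had signals of 4737 and 3429 in the G-MDSC arrays, against 3028 and 1939 in the neutrophil arrays, with separate groups and a log2 difference of 0.73 ± 0.34 (limma adjusted p = 0.172). Uhrf1 had 733 and 275 in the G-MDSC arrays, against 404 and 492 in the neutrophil arrays. Its neutrophil arrays lay between the G-MDSC arrays, and its difference of 0.02 ± 0.45 was the smallest in size of the 39. Chaf1b, of the histone chaperone CAF-1, had 227 and 132 in the G-MDSC arrays, against 134 and 92.8 in the neutrophil arrays, a difference of 0.57 ± 0.53.

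Different probe sets of a gene did not always give the same direction. Of 26 members with several kept probe sets, all of them had the same sign in 17 and mixed signs in 9, among them Mcm2 (-0.48 and 0.53), Cdc45 (0.70 and -0.23) and Rrm1. Members with E2F letters in the promoter, 13 in all, had a median log2 difference of 0.04 between the cell kinds. Limma called 0 of them, and 2 had an unadjusted p under 0.05. The 20 tested members with a promoter but no such letters had a median of 0.15 and 3 calls, those of Tk1, Rrm2 and Pola2. The other called member, Mcm4, had no RefSeq promoter and was in neither set. Over all genes 16.4% were called and 29.6% had an unadjusted p under 0.05, and the difference between the 13 and the 20 members was not tested. Between the G-MDSC replicates the medians were 0.88 with the letters and 0.71 without.

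The pairs of same-numbered arrays gave different pictures. As far as the labels say, the arrays of a pair share only a number. All 39 tested members were higher in G-MDSC replicate 1 than in replicate 2, so the pairs partly restate that difference. G-MDSC minus neutrophils was above 0 for 33 of 39 members in the replicate 1 pair, with a median of 0.70, where 50.1% of all genes were above 0. In the replicate 2 pair it was above 0 for 17, with a median of -0.28, where 40.2% of all genes were above 0. Both pairs were above 0 for 16 members and below 0 for 5, and the signs differed for 18. The matching shares over all genes were not counted.

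**Figure D4:**
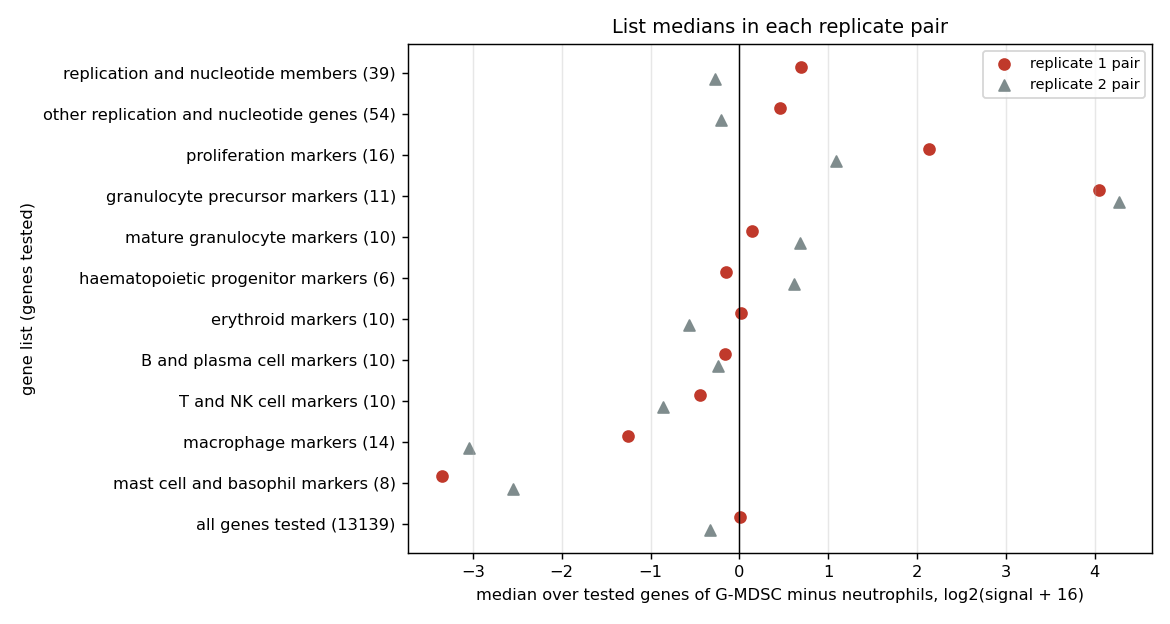
Median over the tested genes of each list of G-MDSC minus neutrophils on log2(signal + 16), in the replicate 1 pair (red circles) and the replicate 2 pair (grey triangles), with the number of genes tested in brackets. The members were at 0.70 and -0.28, proliferation markers at 2.13 and 1.09, and all genes at 0.00 and -0.33.

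A list of 57 further genes of DNA replication and nucleotide supply showed calls in both directions. Of 54 tested, 8 (14.8%) were higher and 3 lower in G-MDSC by limma, where all genes gave 8.3% and 8.05%. The median log2 difference of the 54 was 0.09. The higher ones included Tk2, the mitochondrial thymidine kinase (2.06 ± 0.33), Gmnn, geminin, which blocks Cdt1 (1.78 ± 0.39), Cdk2, the kinase of S phase entry (1.68 ± 0.35), Dna2, a nuclease of flaps (1.48 ± 0.38), Topbp1, which helps to fire origins (1.39 ± 0.40), and Rfc1, the large clamp loader subunit (1.38 ± 0.37). The 3 lower ones were Atic, an enzyme of purine synthesis (-2.55 ± 0.39), Nme1, a nucleoside diphosphate kinase (-2.44 ± 0.34), and Umps, an enzyme of pyrimidine synthesis (-1.27 ± 0.37). The counts changed when 1 array was left out, with the fewest higher without G-MDSC replicate 1. The shares over all genes, given above for these fits, changed as well.

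Proliferation markers, which mostly act in mitosis, were called higher in G-MDSC for 9 of 16 tested (56.2%), against 8.3% of all genes. All 16 differences were above 0, with a median log2 difference of 1.45, and the direction was the same in both pairs for 15. The ubiquitin-conjugating enzyme Ube2c, active at the end of mitosis, was higher by 2.68 ± 0.44 and Ccnb2, a mitotic cyclin, by 2.20 ± 0.40. Most of these calls were lost when G-MDSC replicate 1 was left out, a fit whose G-MDSC arm is 1 array. The share over all genes, given above for that fit, was lower as well. Between same-numbered arrays, the markers' median log2 difference was 2.13 for number 1 and 1.09 for number 2. The number called higher was 14 when quantile normalization was combined with replicate number as a block, where 13.1% of all genes were higher. Limma without an intensity trend called 0 of them, where it called 1.13% of all genes higher. At an unadjusted p under 0.05, 11 markers were higher in that fit. The difference between the lists was not tested.

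Marker lists of some cells differed between the groups, and the sums of others overlapped. Over all genes tested, limma called 8.3% higher and 8.05% lower in G-MDSC. Granulocyte precursor markers were higher in G-MDSC for 9 of 11 tested, with summed signals of 163584 and 159682 in the G-MDSC arrays, against 35003 and 28632 in the neutrophil arrays. Of 10 mature granulocyte markers 2 were higher, with sums of 246281 and 312388 in the G-MDSC arrays, against 244077 and 295955 in the neutrophil arrays, so both kinds carried them. Macrophage markers were lower for 10 of 14, with sums of 17118 and 17202 in the G-MDSC arrays, against 44670.4 and 65649.6 in the neutrophil arrays. Mast cell and basophil markers were lower for 5 and higher for 1 of 8, with sums over the 9 with a probe set of 17295 and 18943 in the G-MDSC arrays, against 39045 and 30157 in the neutrophil arrays. Of the lower ones, Cma1, Mcpt4 and Tpsb2 met the condition for testing only through neutrophils. The higher one, Mcpt8, met it only through G-MDSC. A difference was thus built into their being tested, and their calls give no support to a difference between the groups. Sums for the next lists run over the markers with a probe set. Haematopoietic progenitor markers summed to 4111 and 4220.5 in the G-MDSC arrays, against 2793 and 1601 in the neutrophil arrays. Without Kit, also left out after the values were seen, they summed to 2108 and 1075 in the G-MDSC arrays, against 1242 and 1184 in the neutrophil arrays, and the groups overlapped. For B and plasma cells the sums were 34778 and 34955 in the G-MDSC arrays, against 41555 and 56605 in the neutrophil arrays, and Xbp1, which is also active in other secretory cells, was the brightest marker on each array. Without Xbp1, left out after the values were seen, they were 17849.9 and 13365 in the G-MDSC arrays, against 8658 and 11232 in the neutrophil arrays. Leaving out this 1 gene turned the direction. Of the remaining sums, Jchain alone gave 8912 and 4232 in the G-MDSC arrays, against 310 and 215 in the neutrophil arrays. Of the 10 tested markers, Xbp1 included, 5 were separate by group and lower in G-MDSC, 2 separate and higher, and 3 overlapped. Over all genes 32.2% were separate and lower, and 27.3% separate and higher. For T and NK cells the sums were 1099 and 617 in the G-MDSC arrays, against 1646 and 1415 in the neutrophil arrays. For erythroid cells they were 3134 and 2613 in the G-MDSC arrays, against 3020.1 and 3848 in the neutrophil arrays. Many T and NK and erythroid markers had signals near or under the 40th percentile of the array. That percentile was 133 in neutrophils replicate 2 and 45.7 to 52.6 in the other arrays, so the sums of these lists are open to background signal. By limma, Myb of the progenitor list and Jchain of the B and plasma list were higher, Klrd1 of the T and NK list was lower, and limma called 0 erythroid markers, of which 1 had an unadjusted p under 0.05. No marker was listed at 0. The part of these cells in the members' values was not tested.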

How the data were processed

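RNA of 2 G-MDSC and 2 neutrophil samples was labelled from 100 ng and hybridised to 1 array each, per the labels. The authors' deposited table holds 1 linear intensity per probe set and array. Per the submitters' processing notes, GCOS 1.4 and MAS5 were used. After trimming 2% at each end, the mean intensity was 500 in every array, so no further scaling was applied. An array has no read depth, and precision is set by the 2 arrays per group.

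Of 45101 probe sets, 34945 carry 1 gene symbol, 932 several and 9160 none, besides 64 controls. Signals were used as log2(signal + 16), which understates changes of dim genes. The 28754 probe sets above the 40th percentile of their array in at least 2 of 4 arrays were kept, and the brightest of each gene gave 13139 genes. For each of the 39 tested members this was also the brightest of all its probe sets. G-MDSC minus neutrophils was fitted with limma 3.58.1 in R 4.3.3 (lmFit, eBayes with an intensity trend), two-sided, with Benjamini-Hochberg adjustment over all genes and a threshold of 0.05. The functions were tested on simulated data. Promoters and figures used Python 3.11.15, pandas 2.3.3, numpy 2.4.6 and matplotlib 3.10.9.

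The members, marker lists and tests were chosen with earlier results of these data known. All members could be named, and of other lists up to 6 called genes per direction by size, or their 2 brightest. Marker genes given in examples beside them, such as Mki67 and Mpo, were chosen after their values were seen. Alternatives were other pseudocounts, filters, scalings, variance models, probe set choices, the replicate number as a block, a floor for low signals, and leaving out each array.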

Additional observations from a re-analysis of the deposited data

How the results depend on the processing

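The 4 called members kept their direction under all 16 alternatives, and 6 of the 36 members tested under all of them kept both direction and side of the threshold throughout. Members higher and lower were 5 and 3 with the floor for low signals, 1 and 0 without an intensity trend, and 6 and 3 with the replicate block, where all genes gave 10.1% and 9.57%, 1.13% and 2.52%, and 12.9% and 12.2%. Members lower were 2 with the filter at the 60th percentile and 2 with robust eBayes, where all genes gave 11.5% and 8.4%. With median scaling 4 were higher and 0 lower, where all genes gave 8.19% and 3.45% and limma gave 1 at an unadjusted p under 0.05, as it gave 3 without an intensity trend. Leaving out 1 array gave 0 to 9 higher and 0 to 6 lower, and a member median from -0.31 to 0.70. All genes gave 6.85% higher with quantile normalization, and 10.7% lower when it was combined with the block. Of the further replication genes, 4 were higher with quantile normalization, and 1 was higher and 1 lower without an intensity trend. With the replicate block 13 were higher and 6 lower. The number lower was 1 with median scaling, 5 with the floor and 5 when quantile normalization was combined with the block. Leaving out 1 array gave 1 to 15 higher and 2 to 11 lower. The cause was not tested. Median scaling left 4 members higher in neutrophils replicate 2 than in replicate 1 in place of 20, as the share over all genes moved to 21.6% in place of 62.8%.

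Quantile normalization moved the median of all genes to 0.04 and median scaling to 0.38, against -0.18 as deposited, and the member median to 0.39 and 0.63, against 0.07. Signs turned, with log2 differences given, for members that were not called. With median scaling these were Orc1 0.0331, Mcm2 0.0799, Mcm6 0.51, Cdc7 0.49, Prim2 0.0990, Pold1 0.43, Pole 0.52, Rfc3 0.51, Rfc4 0.51, Rpa2 0.16, Fen1 0.20. With quantile normalization, with or without the replicate block, they were Mcm3 -0.0457, Cdc7 0.24, Pold1 0.14, Pole 0.54, Rfc3 0.56, Rfc4 0.30, Rpa1 -0.0742. With the median of probe sets they were Mcm2 0.0254, Mcm3 -0.24, Gins2 -0.30, Rfc3 0.0951, Rpa1 -0.0989, and with a pseudocount of 64 Pole 0.0136. Leaving out 1 array gave Cdc7 -0.62 to 0.48, Fen1 -0.93 to 0.21, Gins2 -0.45 to 0.49, Mcm2 -1.22 to 0.26, Mcm3 -0.57 to 0.65, Mcm5 -0.17 to 1.07, Mcm6 -0.49 to 0.39, Orc1 -1.85 to 0.80, Orc6 -0.13 to 0.58, Pold1 -0.38 to 0.13, Pole -0.81 to 0.73, Pole2 -0.13 to 1.12, Prim1 -0.55 to 0.70, Rfc3 -0.31 to 0.21, Rfc4 -0.38 to 0.28, Rpa1 -0.47 to 0.52, Uhrf1 -0.67 to 0.70. Same-numbered arrays of the 2 groups share only a number as far as the labels say. Their deviations correlated over genes with r = 0.24, and the block left no called member uncalled. It added calls for Cdt1 (adjusted p = 0.0132), Mcm7 (0.0191), Mcm10 (0.0182), Pold2 (0.0142) and Rfc2 (0.0159). Tk1, Tyms, Pole, Gins1, Rfc3, Cdc6 and Chaf1b had at least 1 signal at or under the 40th percentile of its array, and their values are open to background signal.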
